A study of Mus musculus with 9 samples.

Results

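The genes of the proteasome were followed in mice of the inbred strain C57BL/6J, in tissue of the anterior cingulate cortex, after ketamine, after sleep deprivation and after saline. A gene was included when its probe set carried a single platform symbol of the Psma to Psmg series followed by a digit, and the brightest probe set on average stood for genes with several. This gave 49 of the 22180 genes measured. Of them 47 encode core subunits, regulatory subunits, activators, an inhibitor or assembly factors, and 2 share only the form of the symbol: Psmc3ip, which acts in meiotic recombination, and Psme3ip1, whose product binds the activator Psme3. The alpha subunit gene Psma4 lay on probe sets shared with another gene and was not analysed here. The rule itself uses gene symbols and intensity averaged over all arrays, and no difference between groups.

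The proteasome is the cell's main machine for degrading proteins tagged with ubiquitin. Its barrel-shaped 20S core is built of alpha and beta rings, and the active sites lie on beta subunits inside the barrel. The 19S cap recognises the ubiquitin tag, removes it and unfolds the substrate with a ring of ATPases. Interferon can replace the 3 catalytic beta subunits by their immunoproteasome counterparts, which favour the making of peptides for class I antigen presentation. In neurons, proteasome activity is known to shape synaptic protein turnover, and the transcription factor Nfe2l1 is known to raise proteasome genes together when the proteasome is impaired.

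KT mice received ketamine, an NMDA receptor blocker, by intraperitoneal injection of 3 mg/kg at ZT5, where ZT0 is lights on. SD mice were sleep-deprived between ZT0 and ZT12 with a bar turning at 1.5 rpm in the cage, and the labels give them no injection. Saline mice were injected with saline at ZT5. Tissue of all groups was taken at ZT13, which is 8 h after an injection and 1 h after the end of deprivation, from 1.34 to -0.5 mm relative to bregma, and each group had 3 arrays whose titles call the replicates biological. Neither age nor sex of the mice is stated in the labels. Because the SD mice had no injection in the labels, wakefulness and the lack of an injection cannot be told apart in their comparisons. Array medians lay between 97.7 and 106.2 in intensity. The 8 neuron markers had a summed intensity of 26018 to 27638 in KT, 25442 to 26434 in SD and 25843 to 27087 in saline arrays, with no value at 0. The choroid plexus markers summed to 648 to 970 in KT, 482 to 953 in SD and 583 to 9413 in saline arrays (6 of 7 markers measured, none at 0). Saline arrays 1 and 2, at 2119 and 9413, exceeded every KT and SD array, and the part of this in the results was not tested.

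Promoter sequences are shown for 3 beta subunit genes because the largest difference in each direction between KT and saline fell within this ring. They are the 250 bases before the start site, 5′ to 3′ on the gene's own strand, from the RefSeq promoter table (GRCm38.p6). Capitals mark the core of the antioxidant response element, TGACNNNGC, which Nfe2l1 is known to bind, and the CCAAT box bound by NF-Y. Psmb5 lies at chr14:54617996-54618245 (minus strand), Psmb6 at chr11:70525107-70525356 and Psmb3 at chr11:97703184-97703433 (both plus strand).
Psmb5: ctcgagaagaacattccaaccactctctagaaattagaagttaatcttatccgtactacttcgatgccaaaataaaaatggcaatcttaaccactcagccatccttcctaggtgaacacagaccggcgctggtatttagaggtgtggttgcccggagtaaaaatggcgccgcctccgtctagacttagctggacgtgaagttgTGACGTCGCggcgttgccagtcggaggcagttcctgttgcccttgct
Psmb6: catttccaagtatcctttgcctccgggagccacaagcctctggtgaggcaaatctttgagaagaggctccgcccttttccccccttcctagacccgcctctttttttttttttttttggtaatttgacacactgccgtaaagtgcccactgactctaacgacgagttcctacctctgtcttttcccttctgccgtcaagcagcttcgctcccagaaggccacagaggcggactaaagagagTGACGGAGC
Psmb3: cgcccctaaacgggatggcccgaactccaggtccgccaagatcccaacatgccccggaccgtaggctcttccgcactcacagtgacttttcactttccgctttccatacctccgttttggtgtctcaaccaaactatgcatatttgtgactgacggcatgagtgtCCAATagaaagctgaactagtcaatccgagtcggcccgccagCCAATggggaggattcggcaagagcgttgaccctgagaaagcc

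Psmb5 and Psmb6 each hold 1 match to TGACNNNGC and no CCAAT, and Psmb3 holds 2 CCAAT matches and no TGACNNNGC. A promoter of 300 bases, with 50 bases after the start site, was in the table for 41 of the 49 genes. On either strand, 6 of these 41 genes held TGACNNNGC (14.6%), namely Psmb5, Psmb6, Psmc6, Psmd9, Psmd12 and Psme4, against 14.0% of all 27025 genes in the table. CCAAT stood in 16 of the 41 (39.0%), against 41.1% of all genes. CCAAT was added to the search after the results were seen. No printed promoter holds both motifs. Promoters of the proteasome genes had a median GC content of 57.3%, against 52.7% over all promoters.

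No proteasome gene passed the test over all genes in any of the 3 comparisons. Differences are given as log2(intensity + 16) of one group minus another with the standard error of limma's fit over all 9 arrays, and the offset of 16 damps the differences of dim genes. At adjusted p under 0.05 limma called 0 of 49 members, and the background is 0% of all genes in each comparison. At unadjusted p under 0.05 there were 4 members between KT and saline, 2 higher (background 2.21%) and 2 lower (background 2.35%), which is 8.16% of the members against 4.57% of all genes. Between SD and saline there were 0, higher (background 1.8%) or lower (background 1.72%), against 3.52% of all genes. Between KT and SD there were 5, which is 10.2% of the members against 9.48% of all genes. The 95% interval of the difference lay within 0.5 of 0 on the log2 scale for 48 members in KT against saline, for all 49 in SD against saline and for 45 in KT against SD.

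**Figure D1:**
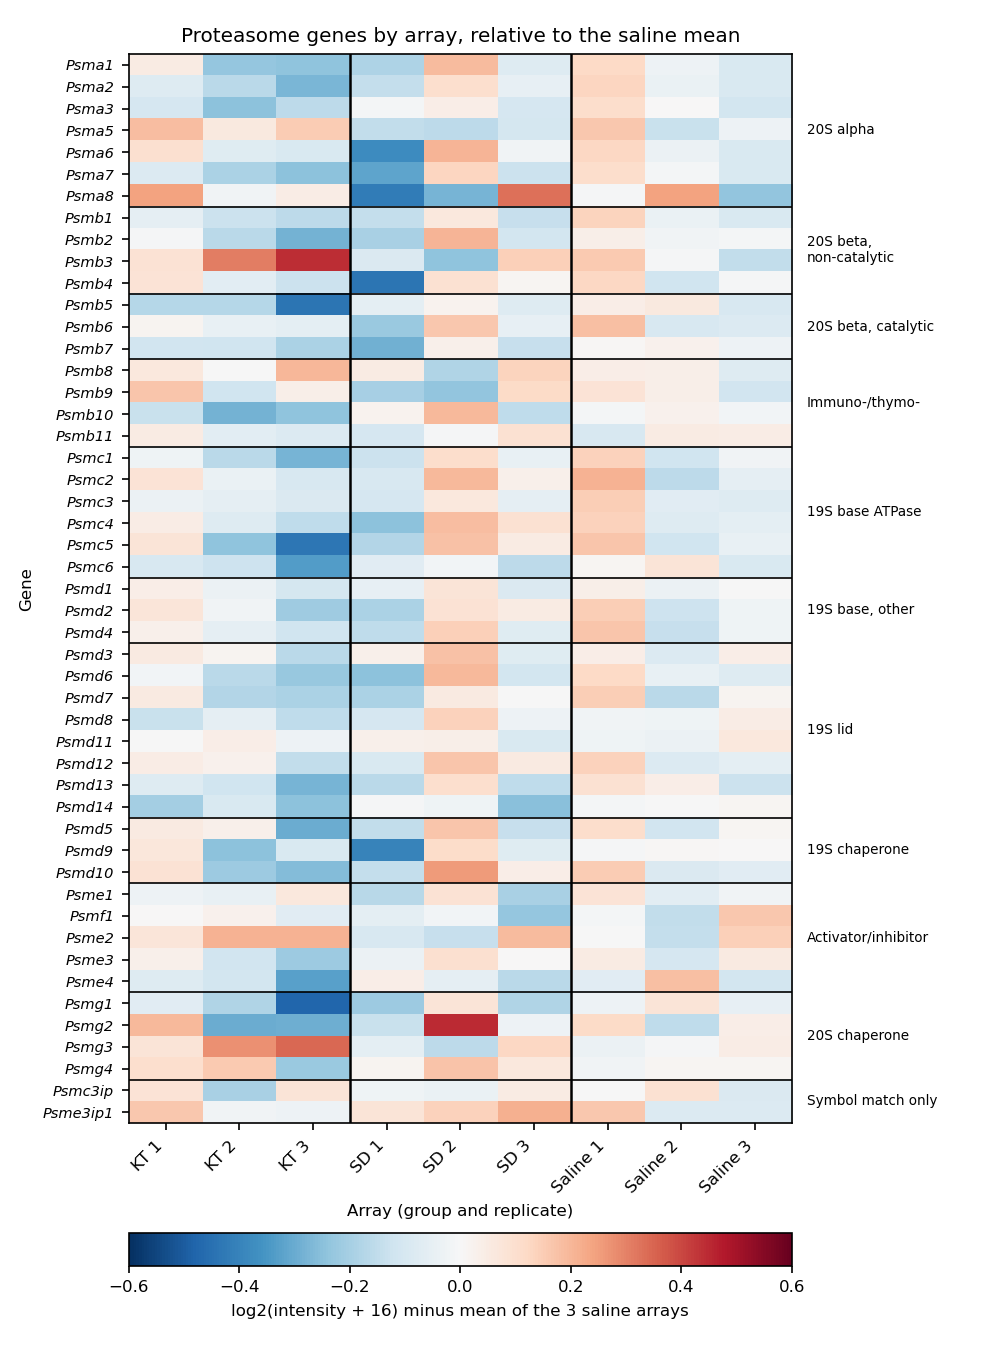
Each row is a gene, grouped by its role in the proteasome, and each column an array; colour gives log2(intensity + 16) minus the mean of the 3 saline arrays. KT 3 and SD 1 are mostly blue (lower), SD 2 and Saline 1 mostly red (higher), and Psmb3 and Psmg3 are among 9 genes above the saline mean in KT 3.

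The genes varied together from array to array within each group. Relative to the saline mean, the median of the 49 genes was 0.042, -0.079 and -0.15 in KT arrays 1 to 3, -0.13, 0.092 and -0.050 in SD arrays 1 to 3, and 0.091, -0.035 and -0.045 in saline arrays 1 to 3. Averaged over arrays this was -0.064 ± 0.099 in KT, -0.030 ± 0.11 in SD and 0.0037 ± 0.076 in saline (SD, n = 3 each), so the distance between groups was smaller than the spread within each of them. KT array 1 was the highest of its group for 39 of 49 genes, KT array 3 the lowest for 36, SD array 2 the highest for 37, SD array 1 the lowest for 31 and saline array 1 the highest for 30.

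Part of this pattern was shared by bright genes in general. Among the brightest 33.33% of genes (7394), KT array 1 was the highest of its group for 68.8%, KT array 3 the lowest for 70.9% and SD array 2 the highest for 72.7%, and their median stood at 0.0076, -0.15 and 0.099 in these arrays. The 75th percentile of intensity was 221 in KT array 3 and 254 in SD array 2, the extremes of the 9 arrays. Saline array 1 and SD array 1 deviated more in the proteasome genes than in bright genes: saline array 1 was the highest of its group for 35.9% of bright genes, with a median of 0.0019, and SD array 1 the lowest for 38.9%, with a median of -0.030. After quantile normalization the proteasome medians were 0.049, -0.030 and -0.035 in KT, -0.12, 0.029 and 0.011 in SD and 0.090, -0.039 and -0.041 in saline arrays.

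**Figure D2:**
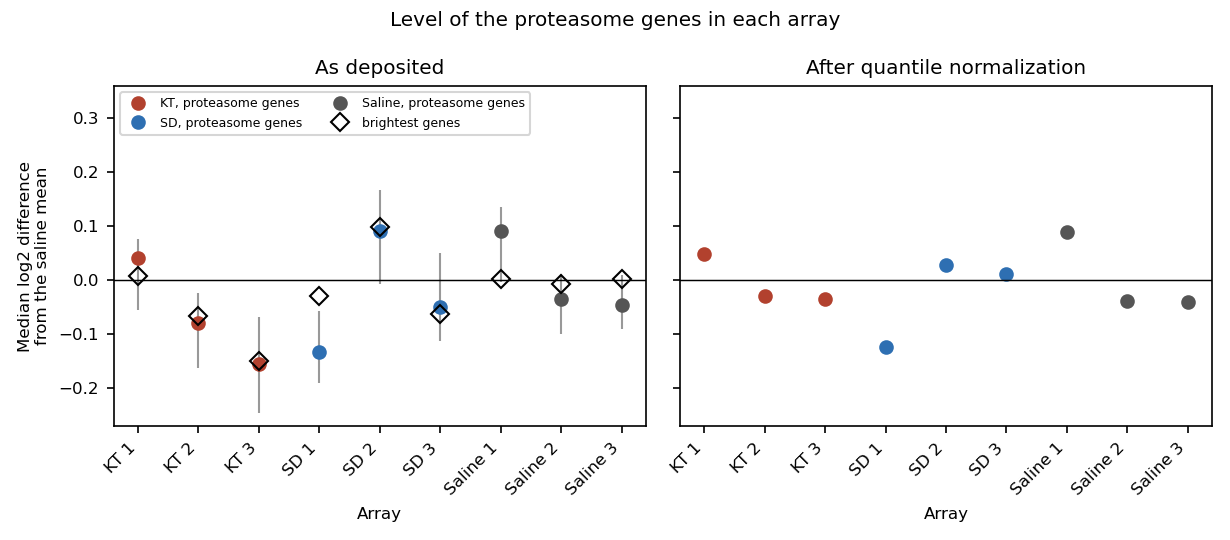
Left, median log2 difference from the saline mean over the 49 proteasome genes in each array (circles; bars, the middle quartiles of the genes) with the same median over the brightest genes (diamonds); right, the proteasome medians after quantile normalization. KT 3 moves from -0.15 to -0.035 with quantile normalization, while SD 1 stays at -0.12 and Saline 1 at 0.090.

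Between KT and saline, which addresses the state of the tissue 8 h after ketamine, 39 members had a lower mean and 10 a higher one, with a median of -0.062. The background is 54.6% of all genes with a lower mean (median -0.015), and among the brightest genes 79.4% had one (median -0.069), close to the 79.6% of the members. After quantile normalization 26 members were lower and 23 higher, and with each array centred on the median of the bright genes 23 were lower and 26 higher. The groups lay apart downward for 7 members (background 7.89%; 13.2% of bright genes) and upward for 1 (background 6.48%). With 1 array fewer, groups lie apart more readily: downward for 24 members without KT array 1 (23.5% of all genes) and 13 without saline array 3 (12.4%), and upward for 5 without saline array 1 (11.2%). Without saline array 1 the median was -0.022, with 31 lower and 18 higher, and without saline array 2 it was -0.100, with 40 lower and 9 higher. Astrocyte markers had lower means in KT than in saline for 7 of 7 genes (median -0.092) and endothelial markers for 7 of 8 (median -0.12), 0 of them at unadjusted p under 0.05. Astrocyte markers summed to 8730 to 9808 in KT and 9061 to 9954 in saline arrays, and endothelial markers to 1875 to 2266 in KT and 2067 to 2274 in saline arrays. The part of these cells in the members' differences was not tested.

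Psmb5, the core subunit with chymotrypsin-like activity, had the smallest unadjusted p of the members between KT and saline. Its intensity was 394.7, 394.6 and 325.5 in KT arrays, 427.5, 452.8 and 422.2 in SD arrays and 459.3, 465.8 and 416.4 in saline arrays. Every KT array lay below every SD and every saline array. The difference between KT and saline was -0.26 ± 0.10 (unadjusted p = 0.0206, limma adjusted p = 0.870), a fold of 0.835, and that between KT and SD was -0.22 ± 0.10 (unadjusted p = 0.0443, adjusted p = 0.525).

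In KT the other catalytic core subunits were closer to saline than Psmb5 was. Psmb7, with trypsin-like activity, read 774.2, 771.2 and 733.3 in KT, 684.6, 857.9 and 761.2 in SD and 844.5, 853.5 and 820.7 in saline arrays. All KT arrays were below all saline arrays (-0.14 ± 0.10), while the SD arrays spanned both (-0.13 ± 0.10). Psmb6, with caspase-like activity, read 481.9, 461.4 and 456.6 in KT, 406.1, 534.2 and 459.3 in SD and 540.6, 444.1 and 448.8 in saline arrays. It averaged 467 ± 13.5 in KT, 467 ± 64.4 in SD and 478 ± 54.4 in saline arrays (SD, n = 3 each), and the groups overlapped.

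Among the non-catalytic beta subunits Psmb3 stood apart from its ring. Its intensity was 364.7, 428.2 and 471.0 in KT, 321.5, 287.9 and 380.0 in SD and 383.7, 341.1 and 307.4 in saline arrays. KT arrays 2 and 3 were above every other array and KT array 1 lay inside the range of both other groups. The difference was 0.28 ± 0.13 between KT and saline (unadjusted p = 0.0437, adjusted p = 0.870) and 0.34 ± 0.13 between KT and SD (unadjusted p = 0.0171, adjusted p = 0.468). Psmb1, Psmb2 and Psmb4 were at -0.11 ± 0.10, -0.15 ± 0.11 and -0.037 ± 0.13 between KT and saline.

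The alpha ring, which gates the entry to the barrel, had 7 of 8 genes measured, 5 lower and 2 higher in KT than in saline, with 0 at unadjusted p under 0.05 and a median of -0.14. Lower means in KT were found for 54.6% of all genes and 79.4% of bright genes (median -0.069 for bright genes). Psma1, Psma2, Psma3 and Psma7 ranged from -0.17 to -0.14, and Psma6 was at -0.021 ± 0.13. The 2 higher ones, Psma5 and Psma8, a subunit of the testis proteasome, were dim. Psma5 read 61.2, 54.8 and 59.5 in KT, 45.5, 45.03 and 47.1 in SD and 60.1, 46.0 and 50.7 in saline arrays, below the array medians throughout. The KT and SD arrays of Psma5 did not overlap (0.27 ± 0.10, unadjusted p = 0.0154, adjusted p = 0.467), but its other probe set gave -0.085 ± 0.13 in that comparison. Between KT and saline Psma5 was at 0.13 ± 0.10, and the other probe set had the opposite sign, at -0.19 ± 0.13.

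In the 19S cap, all 6 ATPases of the base were lower in KT than in saline, with a median of -0.11 and 0 at unadjusted p under 0.05. The background is 54.6% of all genes and 79.4% of bright genes with a lower mean, and the median of bright genes was -0.069. Psmc5 read 517.1, 411.4 and 358.0 in KT, 430.9, 555.0 and 507.9 in SD and 551.1, 449.1 and 473.9 in saline arrays. KT arrays 2 and 3 were below all others while KT array 1 was among the higher ones, and the difference from saline was -0.20 ± 0.14. Psmc6 was at -0.18 ± 0.10, and Psmc2 at -0.019 ± 0.11, where the other probe set of Psmc2 gave -0.20 ± 0.13. The other base subunits, among them the ubiquitin receptor Psmd4, lay between -0.054 and -0.035. In the lid 7 of 8 genes were lower (median -0.11), against the same background. The deubiquitinating enzyme Psmd14 was at -0.18 ± 0.10 and Psmd11 at 0.0027 ± 0.087. The base chaperones Psmd5, Psmd9 and Psmd10 were at -0.072, -0.089 and -0.13.

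Of the 4 assembly chaperones of the 20S core, 2 had lower and 2 had higher means in KT than in saline, and none passed the adjusted test. Psmg1, which with Psmg2 helps to build the alpha ring, read 161.0, 147.4 and 117.3 in KT, 143.6, 179.6 and 147.4 in SD and 165.6, 179.9 and 163.3 in saline arrays. Every KT array was below every saline array (-0.24 ± 0.12, unadjusted p = 0.0602, adjusted p = 0.870). Psmg3, which pairs with Psmg4 in the same task, read 140.7, 163.5 and 172.6 in KT, 126.7, 117.5 and 145.9 in SD and 129.0, 131.8 and 137.3 in saline arrays. Every KT array was above every saline array (0.23 ± 0.10, unadjusted p = 0.0428, adjusted p = 0.870), and the difference from SD was 0.26 ± 0.10 (unadjusted p = 0.0245, adjusted p = 0.484). Psmg4 was at 0.011 ± 0.11 and Psmg2 at -0.13 ± 0.16 between KT and saline, where the other probe set of Psmg2 gave 0.17 ± 0.12.

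Of the activators, which open the barrel in place of the cap, Psme2 read 175.9, 195.0 and 194.8 in KT, 155.0, 149.97 and 192.6 in SD and 166.6, 149.6 and 185.5 in saline arrays. The groups overlapped, and the difference between KT and saline was 0.16 ± 0.11. Its partner Psme1 was at -0.0038 ± 0.10, the nuclear activator Psme3 at -0.10 ± 0.10, the large activator Psme4 at -0.17 ± 0.11 and the regulator Psmf1 at -0.015 ± 0.10. Psmb3, Psmg3 and Psmb8 had their highest value of the 9 arrays in KT array 3 and their lowest in SD array 2, the arrays with the lowest and the highest 75th percentile. The part of this array effect in their differences was not tested, and after quantile normalization Psmb3 and Psmg3 were at 0.35 and 0.26 between KT and saline.

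**Figure D3:**
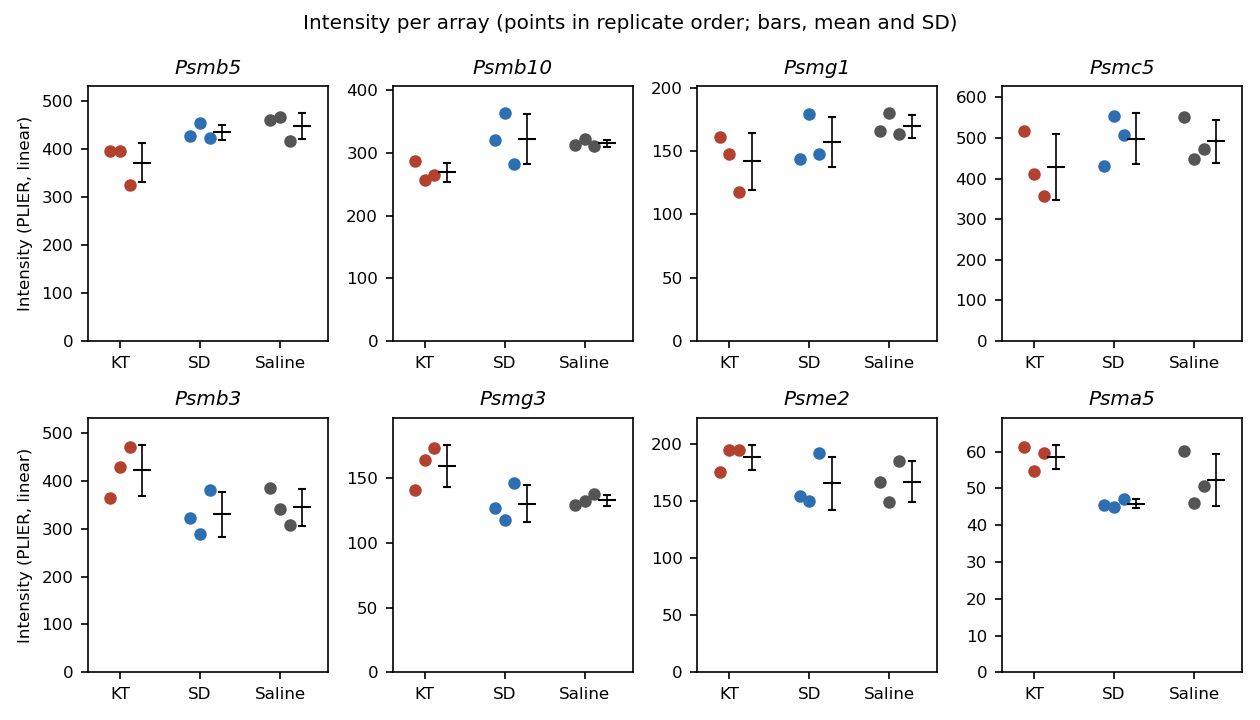
Intensity of 8 genes in each array (points in replicate order, linear axis from 0), with the mean and SD of each group beside them. Psmb5 and Psmb10 are lowest in KT and Psmb3 and Psmg3 highest in KT on average; only Psmb5, Psmb10, Psmg1 and Psmg3 of the 8 have KT arrays that do not overlap with saline.

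The immunoproteasome subunits showed no common direction. Psmb10, the counterpart of Psmb7, read 286.5, 256.3 and 264.0 in KT, 320.4, 363.2 and 282.4 in SD and 313.3, 321.8 and 311.3 in saline arrays. Every KT array was below every saline array (-0.22 ± 0.10, unadjusted p = 0.0482, adjusted p = 0.870), and KT array 1 alone reached into the SD range (-0.24 ± 0.10, unadjusted p = 0.0325, adjusted p = 0.491). Psmb8, the counterpart of Psmb5, read 110.0, 104.3 and 122.6 in KT, 108.9, 90.4 and 116.3 in SD and 108.2, 107.9 and 98.2 in saline arrays, and Psmb9, the counterpart of Psmb6, read 84.9, 66.7 and 76.0 in KT, 62.2, 60.4 and 81.2 in SD and 79.1, 76.0 and 67.0 in saline arrays. Both overlapped in all groups, at 0.086 ± 0.10 and 0.027 ± 0.12 between KT and saline. Psmb11, a subunit of the thymus proteasome, was at -0.032 ± 0.093. In this bulk tissue fewer cells of a type and less RNA per cell cannot be told apart, and microglia markers, of the resident immune cells of the brain, summed to 2338 to 2485 in KT, 2501 to 2664 in SD and 2343 to 2570 in saline arrays (8 of 9 measured, none at 0). The part of these cells in the result was not tested.

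Within an array, the ratio of each immunoproteasome subunit to its counterpart was compared between groups. The log2 ratio of Psmb8 to Psmb5, relative to the saline mean, was 0.23, 0.17 and 0.64 in KT arrays, 0.11, -0.20 and 0.21 in SD arrays and 0.0031, -0.021 and 0.018 in saline arrays. All KT arrays lay above all saline arrays, and KT array 3 was far above the other 2. The difference between KT and saline was 0.35 (exact two-sided permutation p = 0.1, the smallest that 3 against 3 allows; Benjamini-Hochberg p = 0.45 over 9 tests). It was 0.27 after quantile normalization and ran from 0.19 to 0.44 over 19 alternatives. Between KT and saline Psmb5 itself was at -0.26 and Psmb8 at 0.086. Psmb10 to Psmb7 was lower in KT than in SD by -0.23 (exact permutation p = 0.1, adjusted 0.45) and -0.078 from saline (exact permutation p = 0.2). Psmb9 to Psmb6 differed by 0.055 between KT and saline and by -0.071 between SD and saline (exact permutation p = 0.7 and 0.9). The smallest adjusted value of the 9 ratio tests was 0.45. As no such test can give an exact permutation p below 0.1, none could have reached an adjusted p under 0.05. The tests therefore cannot decide whether the ratios differed.

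**Figure D4:**
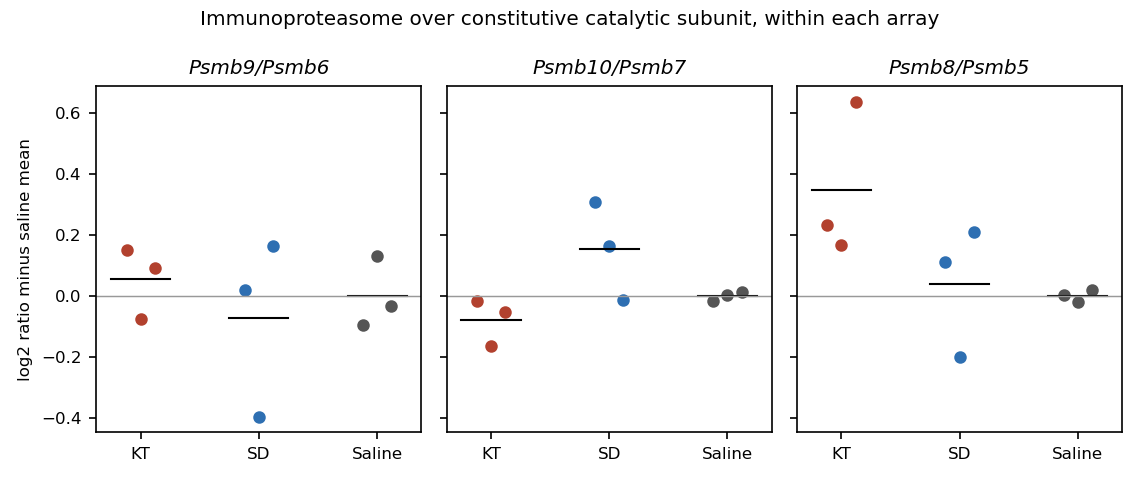
Log2 ratio of each immunoproteasome subunit to its constitutive counterpart within each array, minus the saline mean (points in replicate order; lines, group means). For Psmb8 over Psmb5 the KT arrays lie at 0.23, 0.17 and 0.64, above saline, and the SD arrays spread from -0.20 to 0.21.

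Between SD and saline, which addresses the state of the tissue after 12 h of enforced wakefulness, 36 of the 49 members had a lower and 13 a higher mean, with a median of -0.030 (background 53.4% of all genes lower; 49.7% of bright genes), and the differences ran from -0.14 to 0.14. Groups lay apart upward for 1 member, the dim Psmg4 (background 3.57%), and downward for 0 (background 3.54%), 7.11% of all genes in both directions. Quantile normalization gave 35 lower and 14 higher, and centring on the bright genes 37 lower and 12 higher. Over the 10 alternatives that kept all arrays, 6 to 14 members were higher. The balance depended on single arrays: without SD array 1 there were 30 higher and 19 lower (median 0.025), and without saline array 1 there were 24 higher and 25 lower (median -0.0020). Without SD array 2, 7 were higher and 42 lower (median -0.077). Endothelial markers had higher means in SD than in saline for 8 of 8 genes (median 0.13, 1 at unadjusted p under 0.05). They summed to 2308 to 2494 in SD and 2067 to 2274 in saline arrays. Choroid plexus markers had lower means for 6 of 6 genes (median -0.24, 2 at unadjusted p under 0.05). Oligodendrocyte markers had lower means for 6 of 7 genes (median -0.17, 0 at unadjusted p under 0.05). Neuron markers had lower means for 7 of 8 genes (median -0.033) and astrocyte markers for 5 of 7 (median -0.060), 0 at unadjusted p under 0.05. Microglia markers had higher means for 6 of 8 (median 0.014, 1 at unadjusted p under 0.05). What these cells contribute to the members' differences was not tested.

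By role, all 7 alpha subunits and all 7 constitutive beta subunits had lower means in SD than in saline. The ATPases split into 3 higher and 3 lower, and 0 of these genes had an unadjusted p under 0.05. The background is 53.4% of all genes and 49.7% of bright genes with a lower mean. The genes varied together and their balance depended on single arrays, as given above, so a difference between roles is not shown by these counts. Psma5 (-0.14 ± 0.10), Psmb7 (-0.13 ± 0.10) and Psmf1 (-0.10 ± 0.10) had the smallest unadjusted p among lower means, 0.179, 0.196 and 0.333. Psmf1, a proteasome inhibitor in vitro, read 450.7, 458.5 and 429.0 in KT, 432.4, 444.6 and 381.5 in SD and 446.3, 405.4 and 505.5 in saline arrays. Among higher means Psme3ip1 came first, with 559.3, 489.8 and 486.8 in KT, 525.7, 549.7 and 579.9 in SD and 558.9, 470.0 and 469.1 in saline arrays (0.14 ± 0.10). Saline array 1 lay inside its SD range. Psmg4 read 54.9, 57.8 and 40.7 in KT, 51.0, 58.5 and 53.2 in SD and 49.1, 50.7 and 50.7 in saline arrays (0.084 ± 0.11), so its SD arrays cleared the saline arrays by a small margin. Psmg2 read 207.4, 142.8 and 143.4 in KT, 162.1, 250.1 and 175.3 in SD and 195.6, 159.5 and 184.5 in saline arrays (0.095 ± 0.16), with SD array 2 above all others. The other probe set of Psmg2 gave -0.0089 ± 0.12 between SD and saline.

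**Figure D5:**
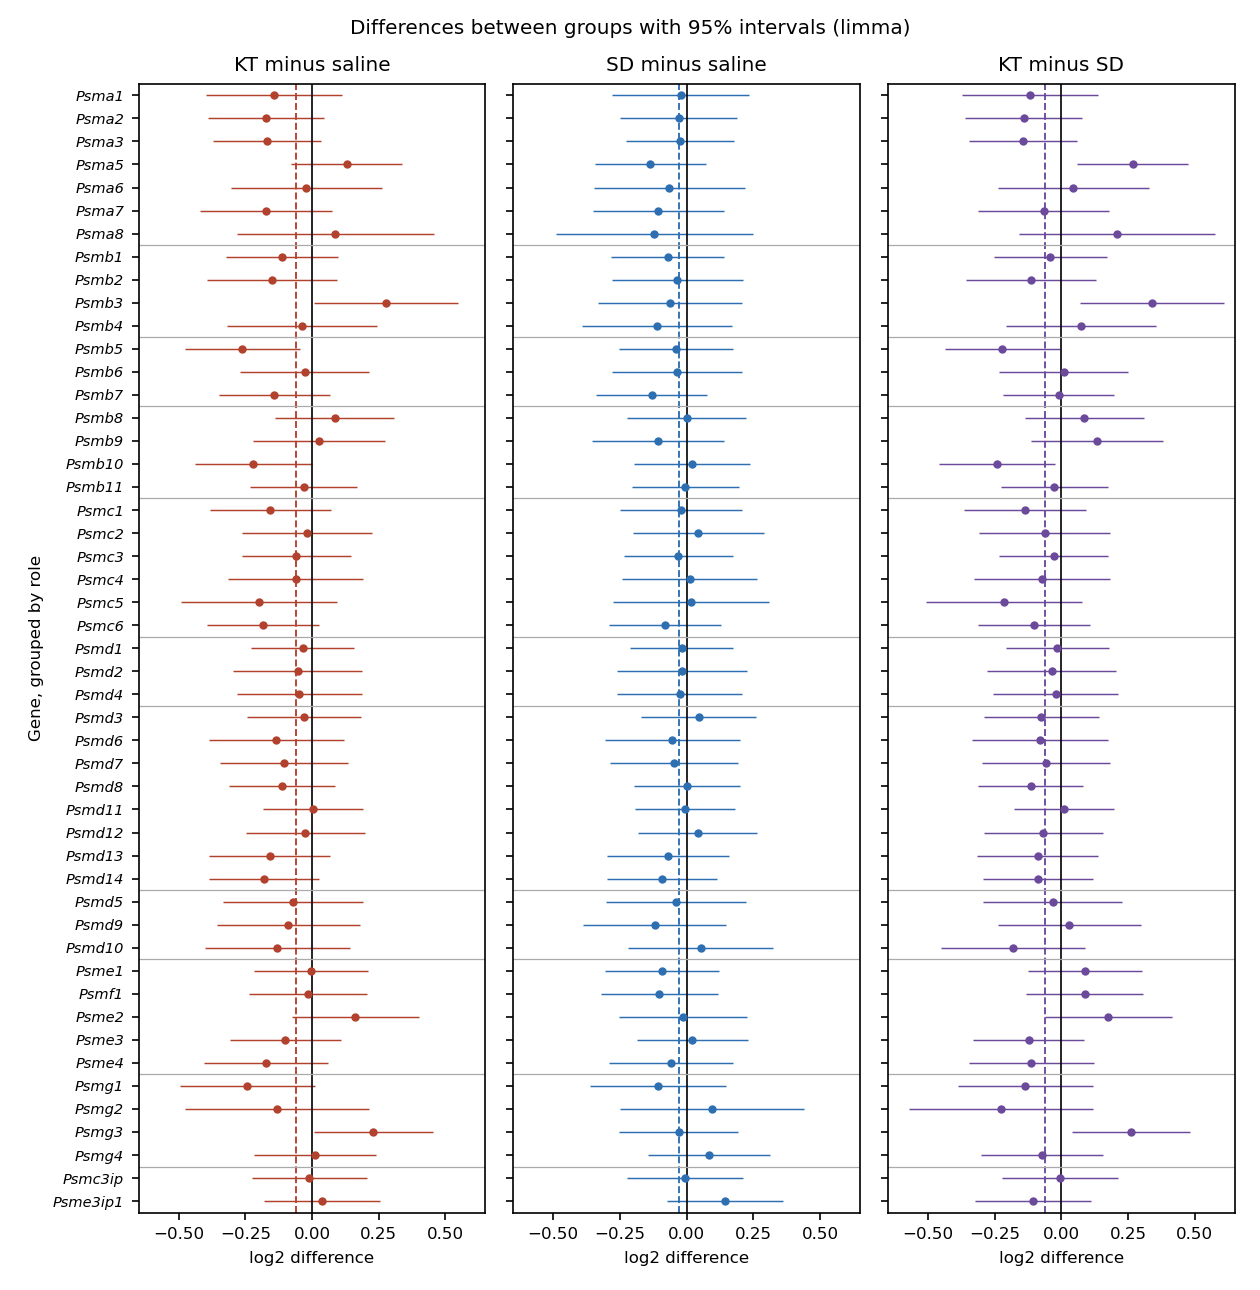
Log2 difference of each gene with its 95% interval from the limma fit, in 3 comparisons; horizontal lines separate the roles and the dashed line is the median of the 49 genes. All SD minus saline intervals include 0, and 45 of 49 do so for KT minus saline and 44 for KT minus SD.

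The direct comparison of KT with SD also tests whether the differences of both groups from the shared saline arrays were equal. Of the members 35 were lower and 14 higher in KT, with a median of -0.063 (background 53% of all genes lower; 78.3% of bright genes). After quantile normalization 23 were lower and 26 higher, and with centring on the bright genes 18 were lower and 31 higher. Without SD array 2 there were 24 lower and 25 higher (median 0.0041), and without KT array 3 there were 29 lower and 20 higher (median -0.016). The 5 members at unadjusted p under 0.05 were Psma5, Psmb3 and Psmg3, higher in KT (background 5.1%), and Psmb5 and Psmb10, lower in KT (background 4.38%), all described above. Groups lay apart upward for Psma5 (background 4.53%) and downward for Psma3 and Psmb5 (background 5.54%), 10.1% of all genes in both directions. Endothelial markers had lower means in KT than in SD for 8 of 8 genes, 6 at unadjusted p under 0.05 (median -0.27), summing to 1875 to 2266 in KT and 2308 to 2494 in SD arrays, with none at 0. Oligodendrocyte markers had higher means for 7 of 7 genes (median 0.24, 0 at unadjusted p under 0.05), summing to 3515 to 5949 in KT and 3456 to 4388 in SD arrays. Choroid plexus markers had higher means for 6 of 6 genes (median 0.21, 1 at unadjusted p under 0.05). The part of these cells in the members' differences was not tested. Psmc5 followed at -0.22 ± 0.14 (unadjusted p = 0.134, adjusted p = 0.597). The differences from saline were thus not shown to differ between KT and SD for any member after adjustment.

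Genes that work beside the proteasome mostly had lower means in KT. Of 12 associated factors 10 were measured, all with lower means in KT than in saline (median -0.080), against 54.6% of all genes and 79.4% of bright genes. At unadjusted p under 0.05 there was 1, Uchl5, a deubiquitinating enzyme of the cap, with 443.8, 370.9 and 347.7 in KT, 412.8, 480.8 and 428.6 in SD and 460.5, 456.5 and 447.2 in saline arrays (-0.23 ± 0.10, unadjusted p = 0.0455, adjusted p = 0.870). Every KT array was below every saline array, KT array 1 by the smallest margin. The maturation factor Pomp was at -0.078 ± 0.21, the cap subunit Sem1 at -0.071 ± 0.19 and the deubiquitinating enzyme Usp14 at -0.070 ± 0.092. Ubiquitin shuttles and the p97 complex had 8 of 10 measured genes lower (median -0.073, 0 at unadjusted p under 0.05), with Ubqln1 at -0.13 ± 0.086 and Vcp at -0.053 ± 0.089. Of 6 ubiquitin and E1 genes only Uba6, an E1 enzyme, was measured (-0.16 ± 0.11).

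Among regulators of proteasome transcription, 9 of 10 measured, 7 had lower and 2 higher means in KT than in saline (median -0.089), and 5 higher and 4 lower in SD than in saline (median 0.047). Nfe2l1 itself read 831.1, 823.1 and 732.5 in KT, 809.1, 863.8 and 871.3 in SD and 838.1, 793.8 and 829.0 in saline arrays, at -0.045 ± 0.090 and 0.047 ± 0.090 from saline. The groups overlapped. Its small Maf partner Mafg read 203.9, 183.7 and 188.4 in KT, 209.3, 230.2 and 213.7 in SD and 194.6, 188.1 and 183.4 in saline arrays, and its SD arrays were above all saline arrays (0.19 ± 0.088, unadjusted p = 0.0487, limma adjusted p = 0.9997). Over these 4 lists together, 26 of 30 genes were lower in KT than in saline (median -0.086), against 54.6% of all genes and 79.4% of bright genes, whose median was -0.069, and 17 of 30 lower in SD than in saline (median -0.0061), against 53.4% of all genes and 49.7% of bright genes.

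Class I antigen presentation and interferon genes, which share inducers with the immunoproteasome, had 14 of 17 measured. Of these 10 were higher and 4 lower in KT than in saline (median 0.033, 0 at unadjusted p under 0.05). Among all genes 45.4% were higher in KT. In SD 5 were higher and 9 lower than in saline (median -0.045), against 53.4% of all genes lower. Between KT and SD 9 were higher and 5 lower in KT (median 0.068), against 47% of all genes higher. At unadjusted p under 0.05 in that comparison there was 1 higher gene, against 5.1% of all genes. Nlrc5, the transactivator of class I genes, read 69.2, 66.4 and 73.4 in KT, 49.3, 41.0 and 63.4 in SD and 59.7, 57.8 and 60.2 in saline arrays. Its KT arrays were above all others, and the difference between KT and SD was 0.36 ± 0.11 (unadjusted p = 0.00642, limma adjusted p = 0.405), at intensities below the array medians. Tap1, a peptide transporter subunit, was at -0.019 ± 0.11 and B2m, the light chain of class I molecules, at 0.033 ± 0.15 between KT and saline.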

How the data were processed

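Total RNA of microdissected tissue was hybridised to 9 Affymetrix arrays. The submitters' processing notes name Affymetrix Expression Console 1.1.1 and PLIER 2.0. The deposited values are linear intensity values for 41345 probe sets. No source used here gives the background correction and normalization behind them. Of the probe sets 23521 had 1 gene symbol in the platform annotation, 1814 several and 16010 none; probe sets with several genes were left out, and symbols were updated through gene identifiers to RefSeq (23328 matched). The brightest probe set stood for each of 22180 genes. Deposited intensity was used without further normalization and put on a log2 scale with an offset of 16, and tested with limma 3.58.1 in R 4.3.3, all 9 arrays in 1 fit with 6 residual degrees of freedom, two-sided, with Benjamini-Hochberg adjustment over all genes. The fit was tested on simulated data. The members, gene lists and alternatives were chosen with earlier results of these data known. Genes given with every array were the 3 members with the smallest unadjusted p in each direction of each comparison and the catalytic subunits; genes of other lists were given at unadjusted p under 0.05, with up to 4 more per list. No 2 arrays were identical (0 pairs). The number of arrays limits the precision. Array numbers in the labels run by group, so order and group cannot be told apart. Protein sequences of the catalytic subunits were not used here. Ratios within arrays were tested by exact permutation in scipy 1.17.1.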

Additional observations from a re-analysis of the deposited data

How the results depend on the processing

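Medians over the members between SD and saline stayed between -0.064 and -0.028 in the 10 settings that kept all arrays and between -0.077 and 0.025 with 1 array left out. Between KT and saline the median was -0.11 to -0.022 with 1 array left out and 0.018 with each array centred on the median of the brightest 33.33% of genes, a setting added after the data were seen. Between KT and SD it was -0.072 to 0.018 in the 10 settings that kept all arrays and -0.11 to 0.0041 with 1 array left out. Adjusted calls stayed at 0 in every comparison except with array weights, where KT array 2 took a weight of 7.92 and 3 members were called between KT and saline (Psmb10, Psmb3 and Psmg3; 6.49% of all genes), beside 14 lower (16.2%) and 3 higher (11.2%) members at unadjusted p under 0.05. At unadjusted p under 0.05, with the share of all genes in parentheses, lower members between KT and saline numbered 1 with quantile normalization (1.9%), median centring (2.47%), offset 1 (2.04%) or the bright-gene centring (0.748%), 6 with offset 64 (3.4%), 4 with limma-trend (3.18%), and 0 to 4 with 1 array left out, 4 being without KT array 1 (5.17%). Higher members numbered 1 with offset 1 (1.99%) or the bright-gene centring (3.47%). They numbered 0 to 2 with 1 array left out, beside 2 in the main fit (2.21%). Between KT and SD, lower members numbered 1 with quantile normalization (3.78%), 0 with the bright-gene centring (1.89%) and 0 to 5 with 1 array left out, 5 being without KT array 1 (6.96%); higher members numbered 1 to 6 with 1 array left out, 6 being without SD array 3 (13.2%). Between SD and saline, lower members numbered 0 to 1 with 1 array left out, beside 0 in the main fit (1.72%). Psmg2 changed sign between SD and saline with array weights (-0.0067), and ranged from -0.081 to 0.21 with 1 array left out; the cause was not tested. Between arrays with the same replicate number, correlations of deviations ran from -0.20 to 0.44, the highest for KT against SD in replicate 3. Shifts of whole arrays enter these correlations, so they cannot show whether replicates were paired. The fit with the replicate block left the median at -0.062, -0.030 and -0.063 in the 3 comparisons, with no member past adjusted p 0.05 (0 in each). Of 339 single-gene values under 19 alternatives, 334 kept their direction and their side of adjusted p 0.05. No gene passed that threshold in the main fit, so keeping its side says little about stability. At limma's unadjusted p under 0.05 between KT and saline, Psmb5 stood in 16 of 19 alternatives. Psmg3 did so in 14, Psmb3 in 13 and Psmb10 in 8. Between KT and SD, Psma5 did so in 17 of 18 and Psmb3 in 17 of 19. Psmg3 did so there in 15, Psmb10 in 14 and Psmb5 in 10. The alternatives refit the same arrays from which these genes were picked for a small unadjusted p. The counts are therefore not independent support. For Psma5 the other, unused probe set gave -0.085 ± 0.13 between KT and SD. Depth has no counterpart in these intensities, and 6 members averaged below 100, where the offset damps differences.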
